A study of Mus musculus with 20 samples.

Results

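The type 1 axis of T cells was followed through 7 genes in sorted CD4 T cells: the transcription factor genes Tbx21 and Eomes, the cytokine receptor genes Il12rb2 and Il18r1, the cytokine gene Ifng, the chemokine gene Ccl5 and the chemokine receptor gene Cxcr3. They were picked by their symbol in the annotation of the array, which holds 30342 gene names, and 10 probes carried one of the 7 symbols. All 10 probes passed the filter on dim probes. Each gene is described by its probe with the highest mean over the arrays, and Eomes, Il12rb2 and Il18r1 have a second, dimmer probe that is given beside it where the 2 disagreed.

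RNA was measured on 20 one-colour arrays, each loaded with cells pooled from 8 to 15 Foxp3 reporter mice (strain B6.Cg-Foxp3<tm1Mal>, mixed sexes, 8 to 14 weeks old), in which Foxp3+ cells carry GFP. From peripheral lymph nodes (pLN) of mice given KLH in alum under the skin, naive T cells (GFP-PD1loGL7-), T follicular helper cells (TFH, GFP-PD1hiGL7+), regulatory T cells (Treg, GFP+PD1loGL7-) and T follicular regulatory cells (TFR, GFP+PD1hi, with or without GL7) were sorted 12 days later (d12, 2 arrays for each) or 25 days later (d25, 1 array for each). From Peyer's patches (PP), the lymphoid follicles of the gut, TFH cells with GL7 (GL7+), TFH cells without it (GL7-), Treg and TFR cells were sorted (2 arrays for each), and the labels of these samples name no immunisation. No naive T cells of PP were among the samples. TFR cells were taken irrespective of GL7 in both tissues, whereas pLN TFH cells were GL7+ by gate. Nothing in the labels says how the pools of one group were separated, so the p-values measure the spread between these arrays, and in sorted pools fewer positive cells and less RNA per cell cannot be told apart.

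T-bet, the product of Tbx21, is the master regulator of type 1 helper cells. It is induced by signals of the T cell receptor, interferon-gamma and interleukin 12, and it switches on Ifng and Cxcr3 directly, so that the cells produce interferon-gamma and migrate towards the chemokines CXCL9, CXCL10 and CXCL11. Eomesodermin is a related T-box factor best known from CD8 T cells and NK cells. Il12rb2 encodes the signalling chain of the interleukin 12 receptor and Il18r1 the ligand-binding chain of the interleukin 18 receptor, both of which feed interferon-gamma production. Ccl5 (RANTES) is a chemokine of effector and memory T cells. Part of the Treg cells use T-bet and CXCR3 to act in type 1 inflammation, and TFH cells can make interferon-gamma beside interleukin 21.

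Tbx21, Ifng and Cxcr3 moved together in these samples, and the sequence upstream of their start sites is shown so that the reader has the regulatory letters at hand (250 bases up to the transcription start, RefSeq annotation, GRCm38.p6, 5′ to 3′ on the strand of the gene). Capitals mark a match to the STAT element TTCNNNGAA. The T-box core AGGTGT was searched on both strands as well.
Tbx21, chr11:97115332-97115581, minus strand: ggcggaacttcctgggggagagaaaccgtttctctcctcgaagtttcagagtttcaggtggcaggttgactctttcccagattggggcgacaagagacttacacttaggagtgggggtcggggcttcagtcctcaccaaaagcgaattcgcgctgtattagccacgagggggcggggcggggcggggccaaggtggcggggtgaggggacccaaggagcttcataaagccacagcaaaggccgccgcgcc
Ifng, chr10:118440796-118441045, plus strand: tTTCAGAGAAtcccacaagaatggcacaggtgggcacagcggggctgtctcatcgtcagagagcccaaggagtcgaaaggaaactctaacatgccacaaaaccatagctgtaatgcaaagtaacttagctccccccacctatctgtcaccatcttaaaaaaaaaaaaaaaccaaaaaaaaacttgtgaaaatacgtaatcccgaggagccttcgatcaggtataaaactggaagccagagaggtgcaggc
Cxcr3, chrX:101734148-101734397, minus strand: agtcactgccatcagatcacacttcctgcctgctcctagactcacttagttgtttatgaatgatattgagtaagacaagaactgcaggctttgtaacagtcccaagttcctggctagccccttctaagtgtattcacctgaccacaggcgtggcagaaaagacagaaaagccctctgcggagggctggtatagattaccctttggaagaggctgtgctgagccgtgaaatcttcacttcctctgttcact
The Ifng window held 1 match to the STAT element, at position -249 from the start site, and the Tbx21 and Cxcr3 windows held none. No AGGTGT was found in the 3 windows on either strand. Over the 32851 windows of the same length in the table, 11.8% held AGGTGT and 7.02% the STAT element. Of the 7 genes, 6 had an entry, Ccl5 being the exception. Among the others, Il12rb2 held 1 match to the STAT element and 1 of the 3 Il18r1 start sites held 2. A match is a run of letters, not a bound site.

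The sorts were checked on markers. Foxp3 was at 13410 to 35130 (normalised intensity) on the 10 Treg and TFR arrays and at 27 to 192.3 on the 10 naive and TFH arrays. Pdcd1, which encodes PD-1, was at 27460 to 174400 on the 12 follicular arrays and at 1297 to 6517 on the 8 others. The arrays lay on 5 slides, each holding the 4 groups of 1 tissue and day: slides 1 and 2 carried pLN d12, slide 3 pLN d25, slides 4 and 5 PP. Some arrays stood apart. On slide 4 the summed intensity of 13 B-cell markers was 27930 to 195400, against 7134 to 16990 on slide 5 and 7212 to 27440 on the pLN d12 arrays, and 6 or 7 of 7 epithelial markers were detected there. The summed intensity of 7 myeloid markers was 21690 to 32540 on slide 5. It was 14080 to 20210 on slide 4 and 9053 to 20760 on the pLN d12 arrays. Itgam alone was at 6297 to 31910 over the 20 arrays. The pLN d12 TFR array of slide 2 had a median local background of 268, where the other 19 arrays had 24 to 78. A list of 11 markers of NK, CD8 and innate lymphoid cells, which also use type 1 genes, summed to 5514 to 14270 over the 20 arrays with 6 to 9 of them detected. Of the 11, Klrd1, Cd8a, Cd8b1, Cd244, Fcer1g and Tyrobp were detected on all 20 arrays, the highest being Cd8b1 at 621.2 to 4794. Klrb1c was detected on 16 arrays, at up to 5899, Klra8 on 4, Ncr1 on 3, and Klre1 and Klrk1 on 0.

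Across the 12 groups, limma's F test called 4 of the 7 genes (Ifng, Cxcr3, Eomes and Il18r1), where it called 17.3% of the 22264 probes tested. The adjusted p was 0.000136 for Ifng, 0.00191 for Cxcr3, 0.00218 for Eomes and 0.00332 for Il18r1. Tbx21 stayed above the threshold of 0.005 at 0.0094, as did Ccl5 at 0.0833 and Il12rb2 at 0.146. The second probe of Il12rb2 was called (adjusted p 0.00264) and that of Eomes was not (adjusted p 0.103), unlike their leading probes. Without slide 4 the test called 0 of the 7.

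Tbx21 (probe A_51_P501364, mm9 chr11:96959417-96959476) was lowest in naive T cells of pLN d12, with a normalised intensity of 50.8 on slide 1, not detected there, and 226 on slide 2. In pLN d12 it was 504 and 948 in TFH, 348 and 331 in Treg, and 1019 and 1591 in TFR cells on slides 1 and 2. The TFR arrays lay above both TFH arrays and both Treg arrays. On d25 it was 340 in naive, 1295 in TFH, 510 in Treg and 1437 in TFR cells. In PP the TFR cells were at the other end of the range: Tbx21 was 175 and 120 in TFR against 440 and 352 in Treg, 453 and 442 in GL7+ TFH, and 743 and 1006 in GL7- TFH cells (slides 4 and 5). Ordered by mean, pLN TFR and d25 TFH cells came first and PP TFR and pLN d12 naive T cells last, and these 2 lowest groups overlapped. The residual SD of 0.64 (log2) was larger than all gaps between neighbours in that order but 1, the step of 1.23 from pLN d12 Treg down to PP TFR cells.

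Cxcr3 (probe A_51_P319022, mm9 chrX:98926920-98926979), the receptor gene under T-bet, had the same groups at its ends. In pLN d12 it was 653 and 2771 in naive, 11894 and 21094 in TFH, 10302 and 7602 in Treg, and 24669 and 34295 in TFR cells. The highest array of all 20 was the d25 TFR array with 38766, and the other d25 arrays gave 3413 in naive, 21459 in TFH and 10115 in Treg cells. PP TFR cells had 2054 and 2751, in the range of the pLN d12 naive arrays. The other PP arrays lay at 13149 and 9490 in Treg, 8191 and 8794 in GL7+ TFH, and 18628 and 24514 in GL7- TFH cells. Only the gap of 1.31 on the log2 scale between PP GL7+ TFH and d25 naive T cells, and that of 0.82 between PP TFR and pLN d12 naive T cells, were above the residual SD of 0.61 among neighbours in the order, and the latter groups overlapped.

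Ifng (probe A_52_P68893, mm9 chr10:117882841-117882900), the cytokine gene of the axis, was not detected in naive T cells, at 20 (the floor) and 41.5 on d12 and 68.0 on d25. TFH cells of pLN had 1234 and 2603 on d12 and 4143 on d25, and TFR cells of pLN 1154 and 2458 on d12 and 3538 on d25. Treg cells of pLN were lower, at 208 and 119 on d12 and 327 on d25. In PP, GL7- TFH cells had 1152 and 1827 and GL7+ TFH cells 588 and 870. PP TFR cells, at 79.0 and 173, and PP Treg cells, at 77.8 and 136, overlapped. In the order of the means, both follicular subsets of pLN and both TFH subsets of PP stood above all Treg groups, and PP TFR cells stood among the Treg groups.

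**Figure D1:**
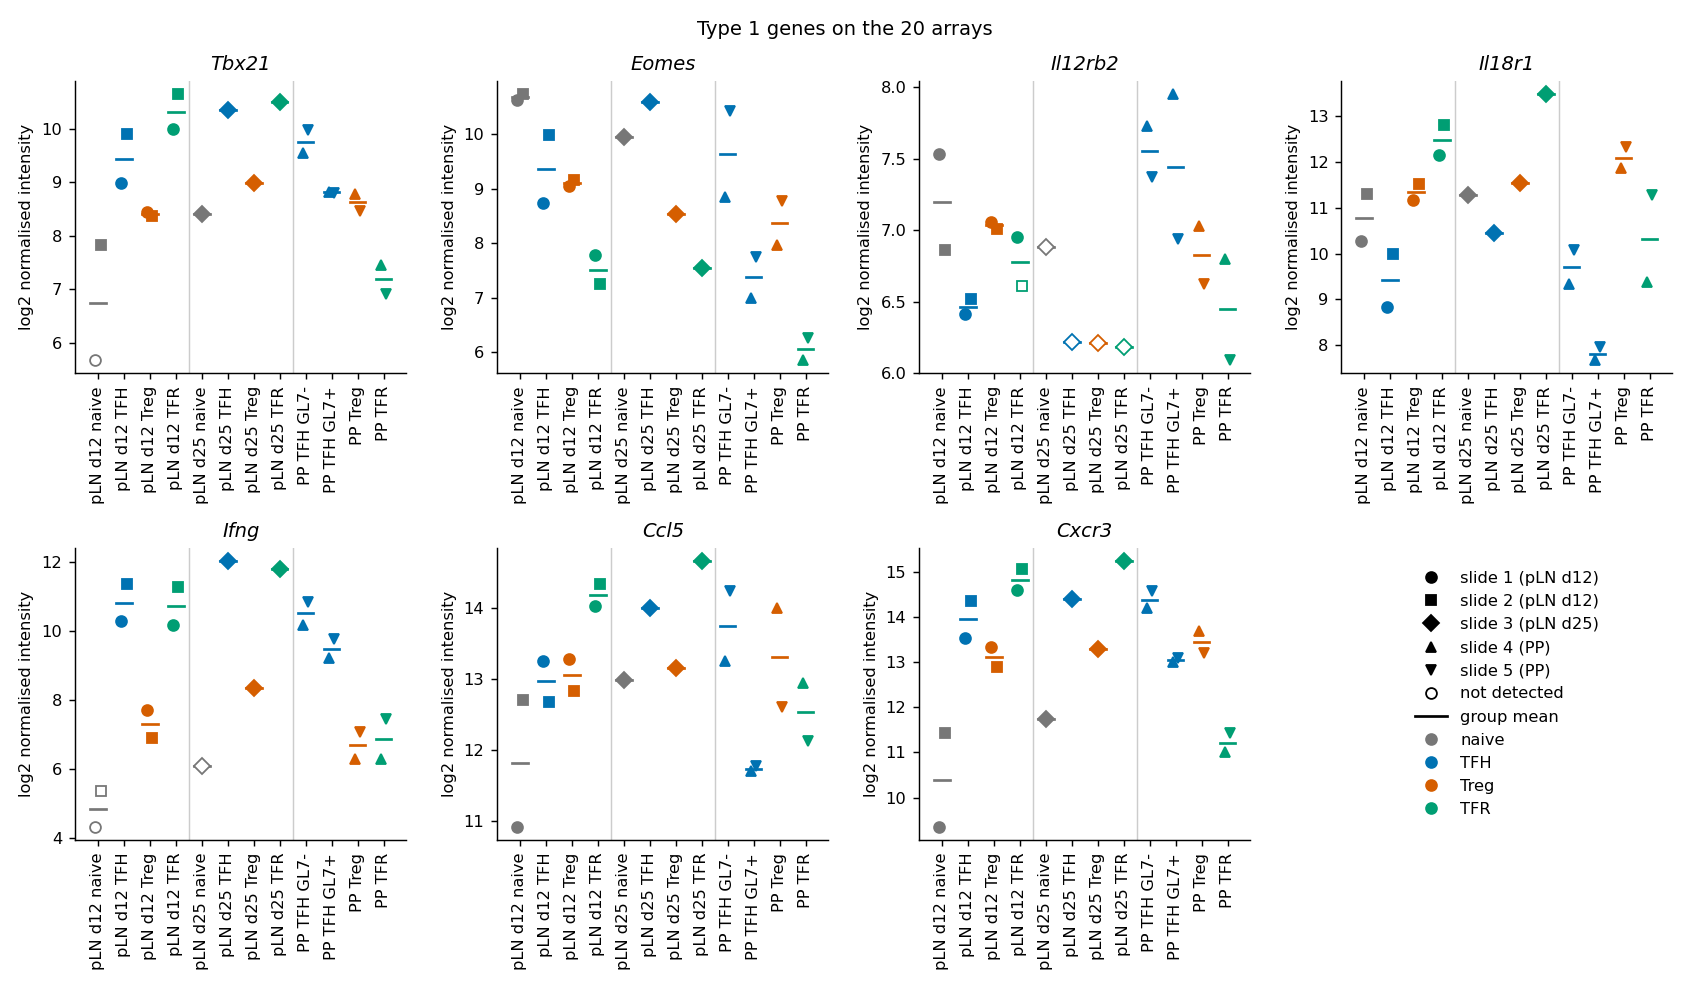
Log2 normalised intensity of the 7 genes on each of the 20 arrays, by group (bar: group mean, symbol: slide, open symbol: not detected on that array). The PP TFR arrays at the right edge sit at 120 and 175 for Tbx21 and at 2054 and 2751 for Cxcr3, while the pLN d12 TFR arrays sit at 1019 and 1591 and at 24669 and 34295.

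Eomes (probe A_55_P2150717, mm9 chr9:118394425-118394484) ran differently from Tbx21. It was highest in naive T cells of pLN d12, at 1590 and 1704, and lower in TFH (425 and 1009), Treg (528 and 567) and TFR cells (220 and 151). On d25 it was 982 in naive, 1542 in TFH, 369 in Treg and 187 in TFR cells. In PP it was 459 and 1382 in GL7- TFH, 128 and 214 in GL7+ TFH, 250 and 441 in Treg, and 57.8 and 76.5 in TFR cells. TFR cells were thus the lowest group in both tissues and on both days, with all 5 TFR arrays below every naive and Treg array. The second Eomes probe was detected on 6 of 20 arrays.

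Il18r1 (probe A_51_P505617, mm9 chr1:40557541-40557600) was highest in TFR cells of pLN and lowest in GL7+ TFH cells of PP. In pLN d12 it was 1238 and 2529 in naive, 457 and 1025 in TFH, 2317 and 2953 in Treg, and 4549 and 7189 in TFR cells. The d25 arrays kept that order with 2494 in naive, 1394 in TFH, 2974 in Treg and 11439 in TFR cells. In PP the order of the regulatory cells was the opposite, with 3720 and 5134 in Treg and 664 and 2473 in TFR cells, and TFH cells had 203 and 247 (GL7+) and 650 and 1086 (GL7-). The 2 PP TFR arrays differed more than those of any other group for this gene, and the lower one was that of slide 4.

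Ccl5 (probe A_52_P638459, mm9 chr11:83339296-83339355) was detected on all 20 arrays, from 1920 in naive T cells of slide 1 to 26153 in d25 TFR cells. Its pLN TFR arrays, at 16732, 20806 and 26153, were above all other arrays of the same slide, but replicates were far apart elsewhere (naive 1920 and 6704, PP Treg 16457 and 6271, PP GL7- TFH 9802 and 19465). Il12rb2 (probe A_55_P1970489, mm9 chr6:67242256-67242315) was dim throughout, at 68.3 to 246, and was detected on 15 of 20 arrays. Its second probe was detected on the 4 PP TFH arrays alone, at 51.1 and 76.7 in GL7+ and 53.0 and 110 in GL7- cells.

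The first question was how the axis differs between follicular helper and naive cells of the same node on d12. Tbx21, Ifng and Cxcr3 were higher in TFH cells, so limma called 3 of the 7 genes, all of them higher, against 14.7% of the tested probes (9.27% higher). Ifng had the largest difference of the 7, and with both naive arrays below background it was at least 29.1-fold higher (adjusted p 6.9e-05). Cxcr3 was higher by 3.56 on the log2 scale (SE 0.56, adjusted p 0.00124) and Tbx21 by 2.69 (SE 0.58, adjusted p 0.00805), although 1 naive array gave no detected Tbx21. Eomes (-1.33, adjusted p 0.132) and Il18r1 (-1.37, adjusted p 0.17) lay on the other side of 0 and did not pass. With slide as a fixed block, which compares cells within a slide, they did (adjusted p 0.0214 and 0.0125), which makes 5 of 7 where 19.1% of all probes were called. Tbx21 lost its call without the TFH array of slide 2 (2.23, adjusted p 0.0655) and without slide 4 (adjusted p 0.0578), and a fit on these 4 arrays alone kept Ifng.

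The same was asked of Treg cells in pLN d12. Cxcr3 (2.72, SE 0.56, adjusted p 0.0213) and Ifng (at least 2.56-fold, adjusted p 0.0476) were higher than in naive T cells, 2 of 7 genes against 3.76% of probes (2.86% higher). Tbx21 was called with slide as a fixed block (1.66, SE 0.44, adjusted p 0.0414), and so was Eomes on the low side (-1.59, adjusted p 0.0309), 4 of 7 against 6.11% (4 against 6.41% with a random block). The naive array of slide 1 stood out, since Cxcr3 differed by 3.98 on slide 1 and by 1.46 on slide 2, and Tbx21 by 2.78 and 0.55. Without that array Cxcr3 was at 1.68 (adjusted p 0.0852) and Ifng at 1.92 (adjusted p 0.354), while without the naive array of slide 2 Tbx21 was called (2.74, adjusted p 0.00757). Both calls were also lost without either Treg array (Cxcr3 adjusted p 0.181 and 0.0728) and without slide 4, and the Ifng call was lost on leaving out 14 of the 16 arrays of groups of 2, all but the PP TFR arrays.

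TFR cells were next set against Treg cells of their own tissue. In pLN d12, Ifng rose by 3.42 on the log2 scale (SE 0.59, adjusted p 0.00463), and it was the 1 gene of 7 called, where 8.35% of probes were (5.79% higher). Tbx21 was higher by 1.91 (adjusted p 0.0628) and Cxcr3 by 1.72 (adjusted p 0.0805), and Eomes was lower (-1.59, adjusted p 0.0992), all short of the threshold. TFR and Treg arrays did not overlap even for Il12rb2, at -0.25, so lack of overlap is not read as a result. The share of all probes without overlap is not given. With slide as a fixed block 5 genes were called, against 12.2% of probes: Ifng, Tbx21 (adjusted p 0.0102), Cxcr3 (adjusted p 0.0232) and Il18r1 (1.13, adjusted p 0.0347) higher and Eomes (adjusted p 0.0131) lower. On d25, with 1 array per group, the differences had the same signs, at 3.43 for Ifng, 1.49 for Tbx21, 1.94 for Cxcr3, 1.94 for Il18r1 and -0.98 for Eomes. Tbx21 and Cxcr3 passed also without either naive array (adjusted p 0.00773 and 0.0102), which feed only the estimate of the spread, while Ifng lost its call without the Treg array of slide 2 (adjusted p 0.0523).

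In PP the same comparison gave lower Cxcr3 and Eomes in TFR cells. Cxcr3 fell by 2.23 on the log2 scale (SE 0.56, adjusted p 0.027) and Eomes fell by 2.32 (SE 0.55, adjusted p 0.0208), which makes 2 of 7 genes, both lower, where 9.25% of probes were called and 3.02% lower. Tbx21 (-1.44, adjusted p 0.161) and Il18r1 (-1.77, adjusted p 0.103) were lower on both slides and passed with slide as a fixed block (adjusted p 0.0329 and 0.00556), 4 of 7 against 13.9%. Ifng differed by 0.19 with a 95% interval from -1.13 to 1.5, and Ccl5 by -0.77 (interval -2.15 to 0.61). The second Il18r1 probe was called (-1.65, adjusted p 0.0399), and the second Eomes probe was not (-0.78, adjusted p 0.694). B-cell markers summed to 195400 in TFR and 132200 in Treg cells on slide 4, and to 13590 and 16640 on slide 5, and their part in these differences was not tested. On slide 5 alone the differences were -1.79 for Cxcr3, -1.55 for Tbx21, -1.05 for Il18r1 and -2.53 for Eomes, but with 1 array per PP group left, limma called 0 of 7 (adjusted p 0.461 for Cxcr3 and 0.0886 for Eomes). The call of Cxcr3 was lost without any 1 of the 4 arrays compared (adjusted p 0.0762 to 0.145), and that of Eomes without either TFR array or the Treg array of slide 5 (0.0635 to 0.156). Tbx21 was called without either naive array, which feed only the estimate of the spread, and Il18r1 without the TFR array of slide 5 (-2.72).

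**Figure D2:**
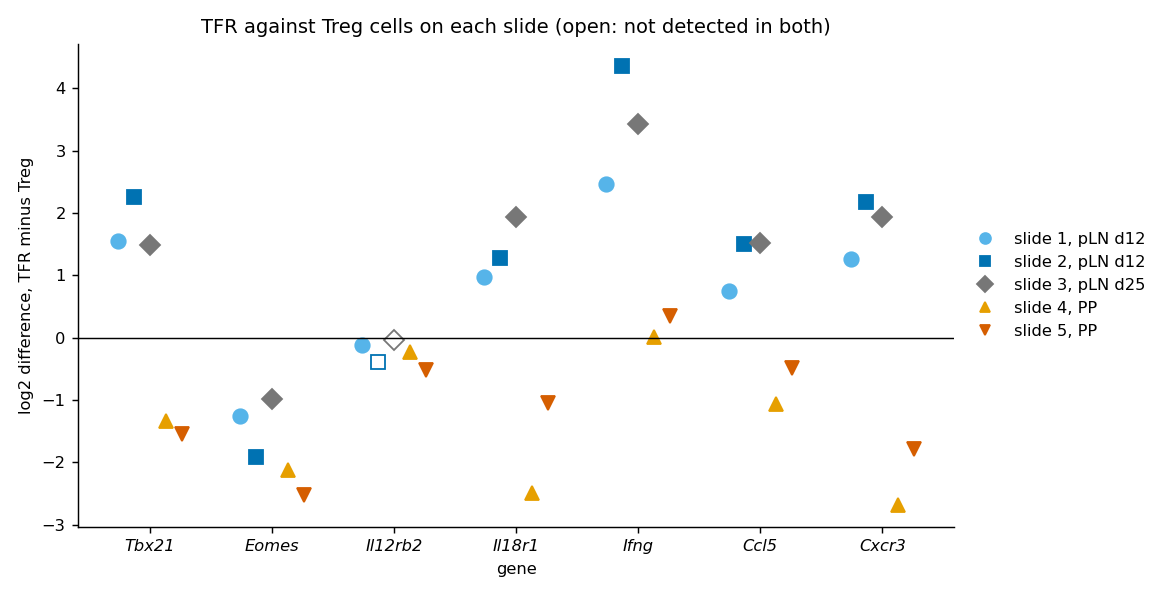
Log2 difference of TFR minus Treg cells on each of the 5 slides for the 7 genes (open symbol: not detected on both arrays). Tbx21, Il18r1, Ccl5 and Cxcr3 lie above 0 on the 3 pLN slides and below 0 on the 2 PP slides (Cxcr3: 1.26, 2.17 and 1.94 against -2.68 and -1.79), while Eomes lies below 0 on all 5.

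Whether the step differed between the tissues was tested as an interaction. The difference of PP minus pLN d12 was -3.95 for Cxcr3 (SE 0.79, adjusted p 0.0755), -3.35 for Tbx21 (SE 0.82, adjusted p 0.141), -3.23 for Ifng (SE 0.84, adjusted p 0.168) and -2.90 for Il18r1 (SE 0.87, adjusted p 0.27). limma called 0 of the 7 genes and 0.548% of all probes. At an unadjusted p under 0.05 were 1818 of the 22264 probes and 4 genes. These 4 genes were called with slide as a fixed block, against 4.58% of probes, at an adjusted p of 0.0164 for Cxcr3, 0.02 for Tbx21, 0.0189 for Ifng and 0.0162 for Il18r1, and a random block called 4 of 7, against 5.11%. Cxcr3 and Tbx21 were also called when either naive array was left out. The naive arrays take no part in this difference and feed only the estimate of the spread. Their SD was 1.5 on the log2 scale for each of these genes. Without slide 4 the differences were -3.50 for Cxcr3, -3.46 for Tbx21, -3.07 for Ifng and -2.18 for Il18r1. With 1 array per PP group left, calls there cannot be set against those of the main fit. For Eomes the interaction was -0.73, with an interval from -2.46 to 0.99, so that a fall in both tissues was measured without a resolved difference between them.

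Set against TFH cells of the same node, pLN d12 TFR cells had more Il18r1 (3.06, SE 0.62, adjusted p 0.0156), the 1 gene of 7 called where 5.01% of probes were (2.81% higher), and the second Il18r1 probe gave 3.27 (adjusted p 0.00186). Ifng did not differ beyond its error, at -0.09 with an interval from -1.41 to 1.23, and the 2 groups overlapped. Tbx21 and Cxcr3 were each 0.88 higher in TFR cells (adjusted p 0.59 and 0.565), with intervals up to 2.17 and 2.12. Eomes was lower (-1.85, adjusted p 0.0911) and passed with slide as a fixed block (adjusted p 0.0121), 2 of 7 against 8.24% (2 against 8.65% with a random block). Eomes passed also without either PP GL7- TFH array, which feed only the estimate of the spread. Il18r1 lost its call without the TFH array of slide 1 (adjusted p 0.15) or either TFR array (adjusted p 0.0576 and 0.12).

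In PP, TFR cells had less Ifng than GL7+ TFH cells, by -2.61 on the log2 scale (SE 0.59, adjusted p 0.0369), 1 of 7 genes against 3.44% of probes (1.09% lower). Tbx21 (-1.63, adjusted p 0.233) and Cxcr3 (-1.84, adjusted p 0.138) were lower and Il18r1 (2.52, adjusted p 0.0549) higher without passing. All 4 were called with slide as a fixed block, against 6.18% of probes, at an adjusted p of 0.0049 for Ifng, 0.046 for Tbx21, 0.0418 for Cxcr3 and 0.00266 for Il18r1, and a random block called 5 of 7, against 6.57%. Without slide 4, with 1 array per PP group left, Ifng was at -2.33 and its call was not kept. The Ifng call was also lost without any 1 of 8 arrays, the 6 of the PP follicular groups and the 2 pLN d12 Treg arrays. Tbx21 and Cxcr3 were called without either naive array, which feed only the estimate of the spread. Il18r1 was called without the TFR array of slide 4 (3.46). The second Il12rb2 probe was at least 2.60-fold lower in TFR cells (adjusted p 0.0112), which the leading probe gave as -1.0 (adjusted p 0.248). The test of whether TFR minus TFH differed between tissues called 0 of 7 genes and 0.611% of probes. At an unadjusted p under 0.05 were 1444 of the 22264 probes and 4 genes. The 4 were Cxcr3 (-2.71, adjusted p 0.287), Ifng (-2.52, 0.413), Tbx21 (-2.51, 0.399) and Il12rb2 (-1.31, 0.6). With slide as a fixed block Il12rb2 was called (adjusted p 0.0487), against 2.75% of probes, and with slide as a random block these 4 genes, against 3.71%.

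The tissues were also set against each other within a cell type. In TFR cells, 4 of 7 genes were called, all lower in PP, where 11.1% of probes were called and 5.39% lower. Cxcr3 fell by 3.61 on the log2 scale (SE 0.56, adjusted p 0.00258), from 24669 and 34295 in pLN d12 to 2054 and 2751 in PP. Ifng fell by 3.85 (SE 0.59, adjusted p 0.0025) and Tbx21 fell by 3.14 (SE 0.58, adjusted p 0.0059). Il18r1 fell by 2.16 (SE 0.62, adjusted p 0.0399), a call it lost on leaving out any 1 of 9 arrays, among them the PP TFR array of slide 4 (-1.21, adjusted p 0.241). PP and pLN arrays did not overlap for these genes, but neither did they for Eomes and Ccl5, which were not called. Lack of overlap thus did not separate called from uncalled genes, and the share of all probes without overlap is not given. Eomes and Ccl5 were lower too (-1.45 and -1.64, adjusted p 0.104 for each), and Il12rb2 was at -0.33.

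These tissues lay on different slides. With slide as a random block (correlation 0.742), Cxcr3 (adjusted p 0.0269), Ifng (0.0148) and Tbx21 (0.0332) were called and Il18r1 was not (0.0675), 3 of 7 against 8.97% of probes. Without slide 4 the differences were -3.40 for Cxcr3, -3.28 for Ifng, -3.41 for Tbx21 and -1.21 for Il18r1. With 1 array per PP group left, their calls were not kept. Leaving out the pLN d12 TFR array of high background as well gave -3.16, -2.74, -3.09 and -0.88. B-cell markers summed to 195400 and 13590 on the PP TFR arrays and to 8996 and 7678 on the pLN d12 TFR arrays, and markers of NK, CD8 and innate lymphoid cells to 10960 and 7340 against 8472 and 5514. The part of these cells in the differences was not tested.

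In Treg cells none of the 7 genes was called between PP and pLN d12 by limma, where 2.24% of probes were (0 against 0.943% with slide as a random block). At an unadjusted p under 0.05 were 0 genes and 3248 of the 22264 probes. Tukey's test, which the methods name, called 0 genes and 19 probes once Benjamini-Hochberg adjustment was added. Before that adjustment, 0 genes and 839 probes had a Tukey p under 0.05. The differences were 0.34 for Cxcr3 (interval -0.91 to 1.58), 0.21 for Tbx21 (interval -1.08 to 1.5) and -0.62 for Ifng (interval -1.93 to 0.70). In GL7+ TFH cells limma called 0 of the 7 as well, against 4.54% of probes. At an unadjusted p under 0.05 were 4365 of the 22264 probes and 4 genes. These were Eomes (-1.99, adjusted p 0.0647), Il18r1 (-1.61, adjusted p 0.175), Ifng (-1.33, adjusted p 0.252) and Il12rb2 (0.98, adjusted p 0.161), and the second Il12rb2 probe was called, at least 1.70-fold higher in PP (adjusted p 0.0124). Eomes passed when either PP GL7- TFH array was left out, which feed only the estimate of the spread. Cxcr3 was at -0.90 (interval -2.15 to 0.34) and Tbx21 at -0.63 (interval -1.92 to 0.66).

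**Figure D3:**
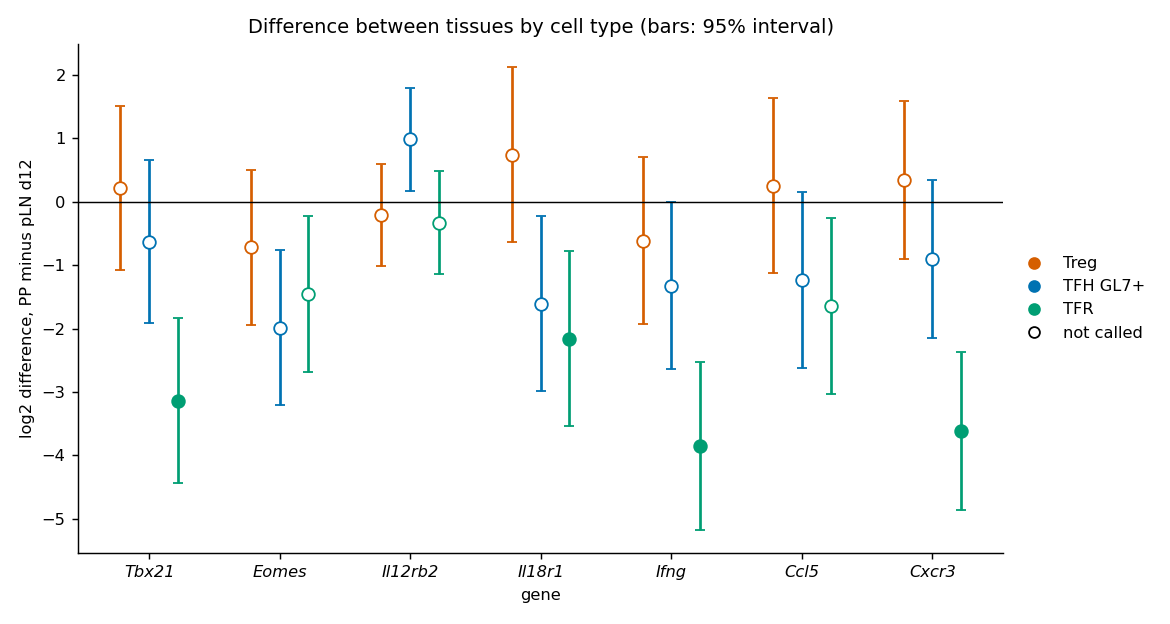
Log2 difference of PP minus pLN d12 for the 7 genes in Treg, GL7+ TFH and TFR cells, with 95% intervals (filled: called, open: not called). In TFR cells Cxcr3, Ifng and Tbx21 lie at -3.61, -3.85 and -3.14, whereas the intervals of the Treg cells include 0 for all 7 genes.

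Within PP TFH cells, GL7 separated no gene of the axis at the adjusted threshold. limma called 0 of 7 genes and 0.00898% of probes, with 4 genes and 254 of the 22264 probes at an unadjusted p under 0.05. By the methods' t-test or with slide as a fixed block (0.018% of probes), 0 of 7 were called. All 7 differences of GL7+ minus GL7- cells were below 0, at -2.27 for Eomes (interval -3.49 to -1.05), -2.02 for Ccl5 (interval -3.40 to -0.64), -1.91 for Il18r1 (interval -3.28 to -0.53), -1.33 for Cxcr3 (interval -2.58 to -0.09), -1.02 for Ifng, -0.95 for Tbx21 and -0.11 for Il12rb2. On both slides the GL7- array was the higher for each gene but Il12rb2, for which it was on slide 5 only. For Eomes the arrays gave 128 and 214 with GL7 and 459 and 1382 without it.

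The later time point was compared for the follicular subsets, and day and slide cannot be told apart here. limma called 0 of 7 genes between d25 and d12 in TFH cells, against 0.0314% of probes, and 0 of 7 in TFR cells, against 0.00898%. At an unadjusted p under 0.05 were 0 genes in either, against 635 of the 22264 probes in TFH and 812 in TFR cells. Tukey's test with Benjamini-Hochberg adjustment added called 0 genes and 0 probes in either. Ifng was 1.21 higher in d25 TFH cells (interval -0.40 to 2.82) and 1.07 higher in d25 TFR cells (interval -0.54 to 2.68). Cxcr3 was 0.44 and 0.41 higher. With 1 array on d25, which is assumed to vary like the groups of 2, a difference of about 1 was not resolved.

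The 3 core genes ran in parallel over the 20 arrays. Pearson's r of log2 intensity was 0.962 between Tbx21 and Cxcr3, 0.876 between Tbx21 and Ifng and 0.861 between Ifng and Cxcr3. Tbx21 and Ccl5 gave 0.775. Eomes stood apart, with r of 0.009 to Tbx21, -0.06 to Cxcr3 and -0.08 to Ifng, as did Il18r1 with 0.20 to Tbx21 and -0.06 to Ifng. These are descriptions over arrays that share slides and groups, and the naive array of slide 1 is the lowest for all 3 core genes.

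**Figure D4:**
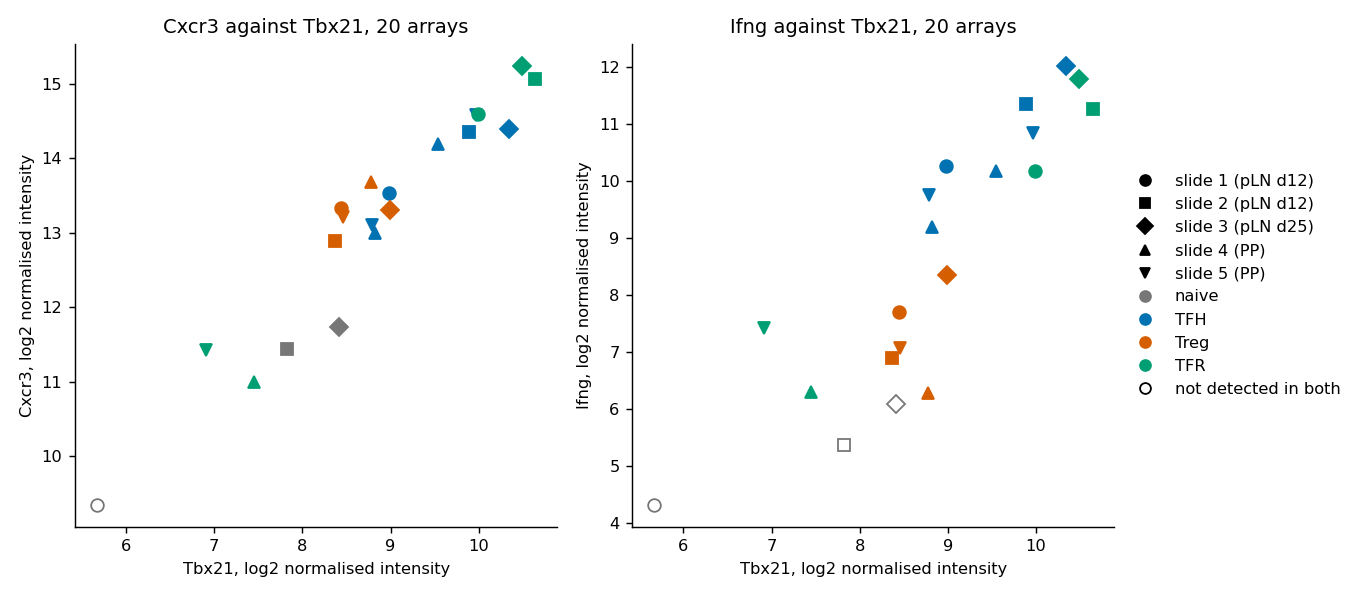
Log2 normalised intensity of Cxcr3 (left) and Ifng (right) against Tbx21 on the 20 arrays (colour: cell type, symbol: slide, open symbol: at least 1 of the genes not detected). Cxcr3 and Tbx21 form 1 band (r = 0.962), with the pLN TFR arrays at its top and the PP TFR arrays near its lower end, and Treg cells lie below TFH cells of like Tbx21 in the Ifng panel.

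Outside the 7 genes, those most like Tbx21 in pattern over the 20 arrays, of 17315 compared, were Mmab (r = 0.829), Soat2 (0.806), Agr3 (0.805), Plxdc1 (0.798) and Ubash3b (0.795). For Ifng they were 2310001H17Rik (0.919), Asap2 (0.918), Farp1 (0.91), Ifi211 (0.909) and Slc9b2 (0.908). For Cxcr3 they were a transcript named by its Ensembl number only (0.833), Crmp1 (0.827), Mapk12 (0.825), Cpd (0.822) and Prr5l (0.815). No gene appeared in more than 1 of these lists. Each r was below the 0.962 between Tbx21 and Cxcr3. All those listed for Ifng were above its r with Tbx21 (0.876) and with Cxcr3 (0.861).

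A wider list of 42 type 1 genes (13 of cytokine sensing, 10 transcription factors, 5 chemokines and their receptors, 14 effector molecules and receptors) was read in the same comparisons, 38 of them on tested probes. In pLN d12 TFH cells, set against naive ones, 10 were higher and 5 lower (39.5%, against 14.7% of all probes), with a median log2 difference of 0.56 where that of all tested probes was -0.09. Among the higher ones were the factor genes Zeb2 (at least 8.37-fold, adjusted p 0.000291) and Bhlhe40 (4.23, adjusted p 0.000178) and Il2rb (3.03, adjusted p 0.000141), a receptor chain of interleukins 2 and 15. Among the lower ones were Prf1 (-2.99, adjusted p 0.000235), the gene of perforin, and the kinase gene Txk (-2.99, adjusted p 0.00265). The list thus moved both ways in TFH cells.

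Treg cells had 9 of the 38 higher and 1 lower than naive T cells (26.3%, against 3.76% of all probes), with a median of 0.20 against -0.03. Gzmb, the gene of granzyme B, was at least 90.2-fold higher (adjusted p 1.32e-05), Klrg1, a receptor of effector cells, at least 37.2-fold (adjusted p 4.12e-05) and Il2rb 4.0 on the log2 scale (adjusted p 0.000107). Ccr2 was called at 4.07 with 1 naive array below background. Crtam was lower (-2.06, adjusted p 0.000387).

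From Treg to TFR cells in pLN d12, 5 of the 38 rose and 3 fell (21.1%, against 8.35% of all probes), with a median of 0.14 against -0.08. Xcl1 (3.36, adjusted p 0.0343), Havcr2 (3.04, adjusted p 0.00935), which encodes the checkpoint receptor TIM-3, Bhlhe40 (2.38, adjusted p 0.0109) and Il18rap (2.29, adjusted p 0.00806), the partner chain of Il18r1, led those that rose, and Txk (-1.95, adjusted p 0.0409) those that fell. In PP 3 rose and 7 fell (26.3%, against 9.25% of all probes), with a median of -0.16 against -0.06. Among them were the chemokine receptor gene Ccr2 (-4.49, adjusted p 0.00798), Gzmb (-3.26, adjusted p 0.000303), Zeb2 (2.66, adjusted p 0.0141) and Txk (-2.61, adjusted p 0.00978). Havcr2 was detected on 1 of 2 pLN Treg arrays, Zeb2 on 1 of 2 PP Treg arrays and Ccr2 on 1 of 2 PP TFR arrays, so the sizes of these differences are uncertain. Bhlhe40 was called in both tissues on the high side (2.20 in PP), unlike Tbx21 and Cxcr3. The interaction called 1 of the 38, Gzmb (-3.09, adjusted p 0.0318).

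Against TFH cells, pLN d12 TFR cells had 5 of the 38 higher and 2 lower (18.4%, against 5.01% of all probes), with a median of 0.14 against 0.008. Klrg1 (6.87, adjusted p 4.23e-05), Gzmb (3.64, adjusted p 0.000276), Havcr2 (3.15, adjusted p 0.0124) and Il18rap (2.36, adjusted p 0.0107) were higher and Zeb2 (-2.70, adjusted p 0.0219) lower. Klrg1 was detected on 1 of 2 pLN TFH arrays and Zeb2 on 1 of 2 pLN TFR arrays. PP TFR cells had 4 higher and 1 lower than GL7+ TFH cells (13.2%, against 3.44% of all probes; median 0.14 against -0.05), with Klrg1 at 6.26 (adjusted p 8.82e-05), Prdm1 at 2.62 (adjusted p 0.00481) and Il18rap at least 3.74-fold higher, and Gzmk at -2.27 (adjusted p 0.0282). Klrg1, Gzmb, Il18rap and Prdm1 were higher in TFR than in TFH cells in both tissues.

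The list was also read between tissues. Of the 38 genes 4 were higher and 9 lower in PP TFR than in pLN d12 TFR cells (34.2%, against 11.1% of all probes), with a median of -0.26 against 0.003. Ccr2 (-3.64, adjusted p 0.0197), Havcr2 (-3.46, adjusted p 0.00465), Gzmb (-3.28, adjusted p 0.000529) and Il18rap (-2.52, adjusted p 0.00467) were lower and Gzma (3.04, adjusted p 0.00382), the gene of granzyme A, was higher. Ccr2 and Havcr2 were each detected on 1 of 2 PP TFR arrays. Of the 13 sensing genes 3 were higher and 2 lower. Stat4 (1.83, adjusted p 0.00595), Jak2 (1.5, adjusted p 0.00181) and Il27ra (1.29, adjusted p 0.00413) were higher in PP, and Il18rap and Socs1 (-1.16, adjusted p 0.0056), an inhibitor of cytokine signalling, were lower. Stat4 and Jak2 act downstream of the interleukin 12 receptor, and Il27ra encodes a receptor chain of interleukin 27. In Treg cells, where 5.26% of the list and 2.24% of all probes were called, 1 was higher (Gzma, 3.09, adjusted p 0.0115) and 1 lower (Crtam, -1.29, adjusted p 0.0119), and in GL7+ TFH cells (15.8% against 4.54%) 1 was higher (Il27ra, 1.22, adjusted p 0.0124) and 5 lower, led by Ccl3 (at least 5.23-fold) and Il18rap (at least 4.17-fold). By limma, 0 of the 38 were called between GL7+ and GL7- TFH cells, between days or in TFR minus TFH between tissues. At an unadjusted p under 0.05 were 5 of them for GL7, against 254 of the 22264 probes. For the days these were 2 in TFH cells (635 probes) and 4 in TFR cells (812), and for TFR minus TFH 9 (1444).

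**Figure D5:**
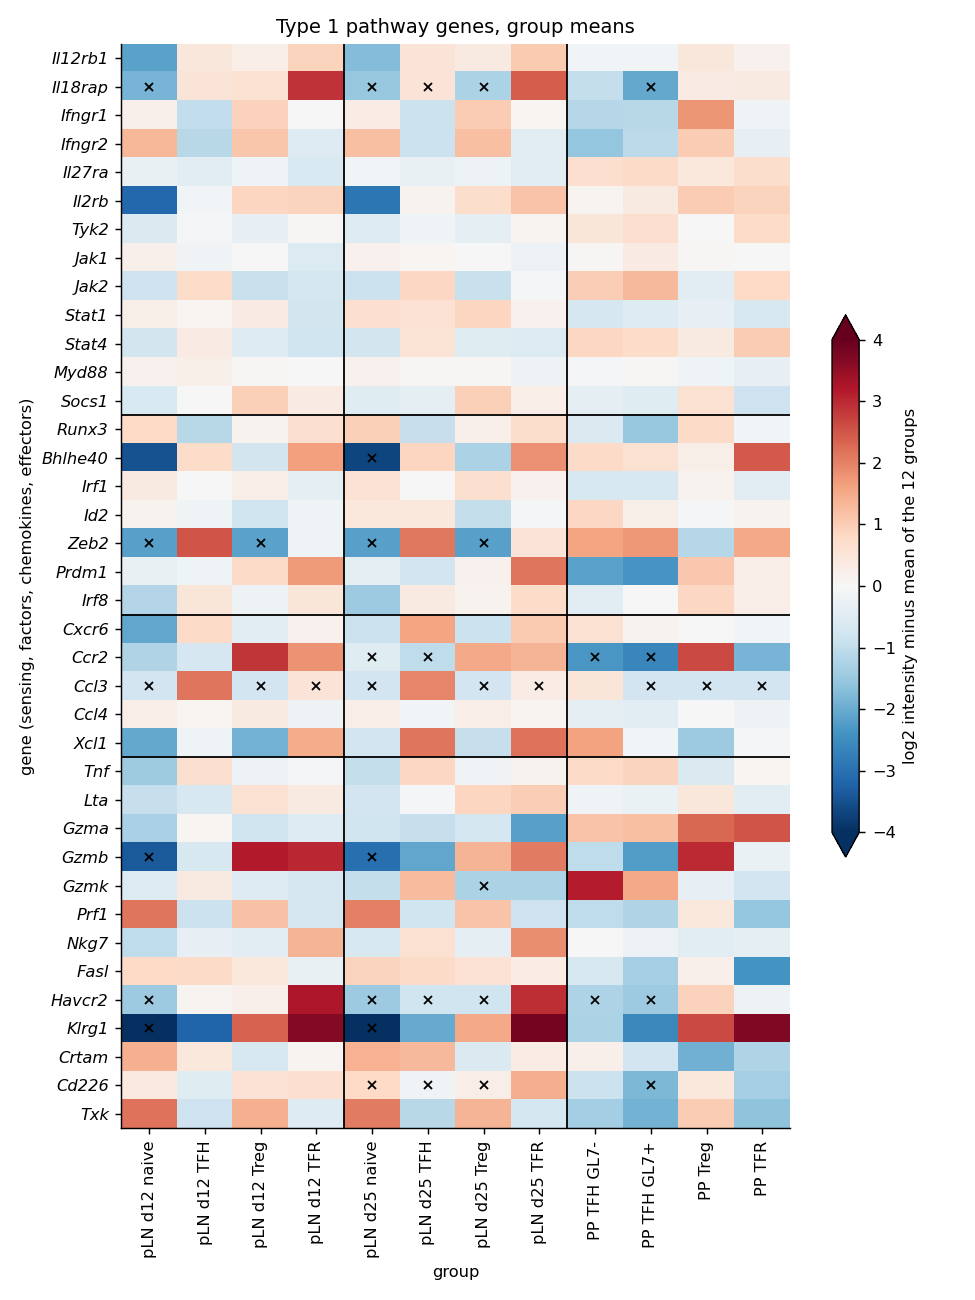
Mean log2 intensity of the 38 tested genes of the wider type 1 list in each of the 12 groups, relative to the mean of the gene over the groups (cross: detected on no array of the group). Havcr2, Il18rap and Gzmb are red in pLN TFR and pale in PP TFR cells, and Gzmb is also red in Treg cells of both tissues. Klrg1 is red in TFR and Treg cells of both tissues, and Gzma is red in PP Treg and PP TFR cells.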

How the data were processed

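RNA of 20 sorted pools was read on one-colour Agilent arrays (Feature Extraction 10.7.3.1). The deposited scanner files give an intensity for each of 157716 features. The authors averaged 4 features per probe, applied quantile normalisation, put the 75th percentile at 1500 and floored at 20. Their deposited intensity table served as an alternative. These steps were repeated from the scanner files without outlier features, those past 1.42 interquartile ranges and those of pixel variation above 0.5 (13230 to 19426 per array). Detection needed 3 of 4 features well above background. It held for 43.0% to 58.0% of probes per array, and 0 probes were saturated. The lowest detected intensity was 20 to 144. The number of arrays limits the precision.

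limma 3.58.1 (R 4.3.3) fitted 12 group means on log2 values of 20 arrays (8 residual degrees of freedom) for 22264 probes, each detected throughout some group of 2 arrays. A call needed a Benjamini-Hochberg adjusted p under 0.05 (two-sided) and a log2 difference of at least 1, and the F test p under 0.001 with adjusted p under 0.005. A fold written as at least N was taken against the lowest detected intensity of a group without detection. Replicate numbers follow deposition order and coincide with slides. On a slide, deviations from group means correlated at 0.521 to 0.721 (pLN d12) and 0.661 to 0.866 (PP), so slide was also fitted as a block. The fit was tested on simulated data. The 7 genes and the lists were chosen with earlier results of these data known. Of the wider list, up to 5 called genes of largest difference were named per comparison, and any others after their values were seen. A gene of that list is not reported here. The alternatives covered background correction, normalisation, floor, probe filter, test, blocks and left-out arrays.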

Additional observations from a re-analysis of the deposited data

Results flagged for a closer look

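The step from Treg to TFR cells and that from TFH to TFR cells moved some genes one way on both pLN d12 slides and the other way on both PP slides. For TFR minus Treg cells these were Cxcr3, Tbx21, Il18r1 and Ccl5, higher in pLN and lower in PP, with a difference of PP minus pLN d12 of -3.95, -3.35, -2.90 and -1.90 on the log2 scale. For TFR minus GL7+ TFH cells they were Cxcr3, Tbx21 and Il12rb2, at -2.71, -2.51 and -1.31. limma's interaction test without a slide term called none of the 7 differences. With slide as a fixed block it called Cxcr3, Tbx21 and Il18r1 for the first step and Il12rb2 for the second, and for Ccl5 the adjusted p was 0.225. Il12rb2 was not detected on 1 of the 4 pLN d12 arrays involved. Their cause was not tested.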

How the results depend on the processing

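Counts are of the 7 genes called by limma, against 4 in the F test, 3 for TFH minus naive, 2 for Treg minus naive, 1 for TFR minus Treg and 1 for TFR minus TFH in pLN d12, 2 and 1 for the latter pair in PP, and 4 for TFR between tissues. Outside the main fit, the slide blocks and Tukey's test, calls among all probes are not given. A lower count there cannot be told apart from fewer calls among all probes. The deposited table gave 1 for Treg minus naive. With normexp this was 1, pLN TFR minus Treg 2, PP TFR minus Treg 1 and its interaction 1. A floor of 100 gave 1, 2, 1 and 2 for these. Scaling without quantile normalisation gave 2 for pLN TFR minus Treg and 2 for PP TFR minus TFH. With all probes tested the F test called 1, and Treg minus naive and both PP steps 0. The second probes gave 2 for PP TFR minus TFH and 1 for TFH between tissues.

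With slide as a fixed replicate block the counts were 5, 4, 5, 2, 4 and 4 for the 6 comparisons within a tissue, and 4 (TFR minus Treg) and 1 (TFR minus TFH) for the interactions. With a random block they were 5, 4, 5, 2, 4, 5, 4 and 4.

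Without slide 4 the F test, Treg minus naive, both PP steps and TFR between tissues had 0. Without the pLN d12 TFR array of slide 2 as well (chosen after seeing the data), TFH minus naive had 1 and the F test and the other 6 had 0. A fit of the compared groups alone gave 1 for TFH minus naive, 2 for TFR between tissues and 0 for the other 5. Tukey's test with Benjamini-Hochberg adjustment added gave 1, 0 and 0. Before that adjustment, a Tukey p under 0.05 held for 2 genes (3139 probes) in TFH minus naive. It held for 3 genes (2380 probes) in TFR between tissues, 1 in each other pLN d12 comparison and 0 in the PP steps. Leaving out 1 array gave 1 to 4 (F test), 0 to 2 (Treg minus naive, pLN TFR minus TFH, TFR minus Treg interaction), 0 to 3 (pLN TFR minus Treg, both PP steps) and 0 to 1 (TFH between tissues).

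Of 2632 values of single genes, 2452 stayed on their side of the threshold, 73 gained a call and the others lost one. Of uncalled values 40 changed sign, and of called values 0. Most of these values were uncalled in the main fit, so the total does not measure how stable the calls were. Single calls were kept in 5 of 27 alternatives (Ifng, Treg minus naive) to 27 of 27 (Ifng, TFH minus naive). That of Il18r1 for TFR between tissues was kept in 11 of 27. Few arrays and dim signal (Il12rb2) limit what was resolved. The cause of these shifts was not tested.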
